A study of Rattus norvegicus with 11 samples.

Results

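Enteroendocrine cells are the hormone-secreting cells scattered through the intestinal epithelium, and 10 genes of these cells are described here in rat ileum: Chga, Chgb, Gcg, Pyy, Cck, Nts, Sct, Gip, Tph1 and Neurod1. They were chosen by name, and all 10 of 10 were found among the 24481 genes with read counts and the 24205 genes with FPKM (fragments per kilobase of gene, scaled to library size, a level that can be compared between genes). Each enteroendocrine cell senses the gut content at its luminal side and releases peptides or serotonin from granules at its base, where they act on nearby nerves and epithelium or enter the blood. The granins Chga and Chgb pack these granules. Cells of the proximal gut are known for secretin, cholecystokinin and GIP, those of the ileum and colon for GLP-1, PYY and neurotensin, and serotonin is made along the whole gut.

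RNA of ileal tissue was sequenced in SD (Sprague-Dawley) rats that were 6 to 8 weeks old. In the SAP (severe acute pancreatitis) group, sodium taurocholate had been infused into the pancreatic duct under anesthesia, and vehicle (saline, ethanol and Tween-80) was injected into the peritoneum 24 h later. The JZL184 group had the same surgery and received JZL184, an inhibitor of monoacylglycerol lipase (MAGL, encoded by Mgll), at 10 mg/kg in that vehicle, and the control group received vehicle. All rats were killed 24 h after the injection. There were 3 control, 4 SAP and 4 JZL184 libraries. The labels do not state what surgery the control rats had, name a control plasmid as the treatment of the controls, call the SAP libraries oil, and do not say that each library came from a separate rat, so that p-values measure the spread between these libraries.

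Between 26341299 and 33847135 reads per library lay on genes. Control libraries 1 and 2 were almost the same library, with a chi-square per gene of 2.81 between their counts where the other pairs of libraries within a group had 77.5 to 563. They were counted as 1 sample, from the sum of their reads and the mean of their FPKM, which left n = 2 in the control group. The libraries are labelled as intestinal epithelial cells from ileum tissue. Epithelial genes were high (Epcam 2220 to 3814 FPKM), but smooth muscle genes were present too, with summed levels of 374 to 2134 FPKM over 8 genes. SAP library 2 had 20 reads on 3 Y-linked genes where every other library had at least 1222, although the methods speak of male rats. That library also had 7826 reads on LOC100911498, taken here as Xist, the X-inactivation RNA of female cells. Every other library had at most 56. Whether SAP library 2 came from a female rat or a swapped sample was not tested. Fabp6, the ileal bile acid binding protein, was at 20506 to 21819 FPKM in the control libraries, at 3079 to 13670 in the SAP libraries and at 410, 9000, 79.9 and 6883 in JZL184 libraries 1 to 4. Slc10a2, another ileal gene, was at 50.9 to 82.0 in control, 49.6 to 135.8 in SAP and 9.24, 34.9, 4.24 and 104 in JZL184. In the same order, Slc51a was at 506 to 547, 167 to 452 and 192, 283, 151 and 515. Slc51b was at 1837 to 1952, 397 to 1748 and 410, 1708, 881 and 2643. Nr0b2 was at 0.29 to 0.37, 0.03 to 0.42 and 0.10, 0.03, 3.14 and 0.19. JZL184 library 1 had 44.5 FPKM of Lct (lactase) and 7.73 of Gata4, which mark the proximal small intestine, where the control libraries had at most 0.33 and 0.17. The other proximal genes were not raised there (Slc40a1 0.74, Cybrd1 0.40 and Onecut2 0, against control maxima of 1.26, 0.75 and 0). JZL184 library 3 had 478 FPKM and JZL184 library 2 had 24.5 of Car1, a colonocyte gene, where the control libraries had at most 0.31, but other colon genes were low in library 3 (Aqp8 0.13 and Hoxb13 0.05). SAP libraries 1 and 2 stood apart from SAP libraries 3 and 4 in several of the hormone genes. Fold changes are therefore also given without JZL184 libraries 1 and 3, a choice made after seeing the data, or without SAP libraries 1 and 2, where that moved them by more than 1.5 times or turned their sign. In bulk tissue, fewer cells of a type and less RNA per cell cannot be told apart.

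The promoters of Gip and Gcg are shown because Gip had the widest range of the 10 genes over the samples and Gcg was among the steadiest. Each is 250 bases, ends at the base before the start site and comes from the RefSeq promoter table (build GRCr8), which held 7 of the 10 genes. Capitals mark GATAA, the core letters bound by GATA factors, and CAGATG, an E-box of the kind bound by Neurod1 with its partners, each searched on both strands.
Gip (chr10:81464820-81465069, plus strand): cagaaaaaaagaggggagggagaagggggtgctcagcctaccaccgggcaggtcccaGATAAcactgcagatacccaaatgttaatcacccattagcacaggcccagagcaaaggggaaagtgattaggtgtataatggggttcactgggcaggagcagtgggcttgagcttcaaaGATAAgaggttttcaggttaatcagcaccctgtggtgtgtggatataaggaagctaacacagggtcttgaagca
Gcg (chr3:67531534-67531783, minus strand): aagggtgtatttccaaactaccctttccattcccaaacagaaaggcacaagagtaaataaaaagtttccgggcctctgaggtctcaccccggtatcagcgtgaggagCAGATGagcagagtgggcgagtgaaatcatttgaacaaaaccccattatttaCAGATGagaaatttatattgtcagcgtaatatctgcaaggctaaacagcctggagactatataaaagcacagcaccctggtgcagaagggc
GATAA was found at -193 and -74 in Gip, counted from the start site, and in no other of the 7 promoters. It was present in 23.5% of the 33469 promoters of this length in the table. CAGATG was found at -143 and -91 in Gcg and, on the opposite strand, at -97 in Chgb, and in 14.0% of all promoters. CAGATG overlaps the general E-box CANNTG, which 6 of the 7 promoters and 65.5% of all promoters held. The letters of the AP-1 motif TGAGTCA were found in Nts at -212 and in Tph1 at -199, and in 4.05% of all promoters. TGACGTCA, the cAMP response element, was in none of the 7 and in 1.59% of all, and TATAAA was in Gcg alone of the 7, at -32 and on the opposite strand at -80, and in 12.9% of all. These matches are descriptions of the sequence and not of binding.

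In control ileum the granin genes had the highest levels. Chga was at 343 ± 67.2 FPKM (mean ± SD, n = 2) and Chgb at 333 ± 41.0, and these overlapped. Sct followed at 155 ± 39.8, then Nts at 107 ± 21.8 and Pyy at 21.4 ± 1.02, each without overlap with its neighbors. Gcg (14.8 ± 1.19), Cck (14.4 ± 1.94) and Gip (14.2 ± 7.53) did not differ beyond their spread. Tph1 was at 2.69 ± 0.27 and Neurod1 at 0.175 ± 0.049 FPKM. In the SAP group the order was Chgb, Chga, Nts, Sct, Gcg, Pyy, Gip, Cck, Tph1 and Neurod1, and only Chga and Nts, among the neighbors in this order, did not overlap. In the JZL184 group it was Chgb, Chga, Nts, Gip, Sct, Gcg, Pyy, Tph1, Cck and Neurod1, with no overlap between Chga and Nts or between Cck and Neurod1. Sct, the third in the control group, was the fourth in the SAP group and the fifth in the JZL184 group.

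**Figure D1:**
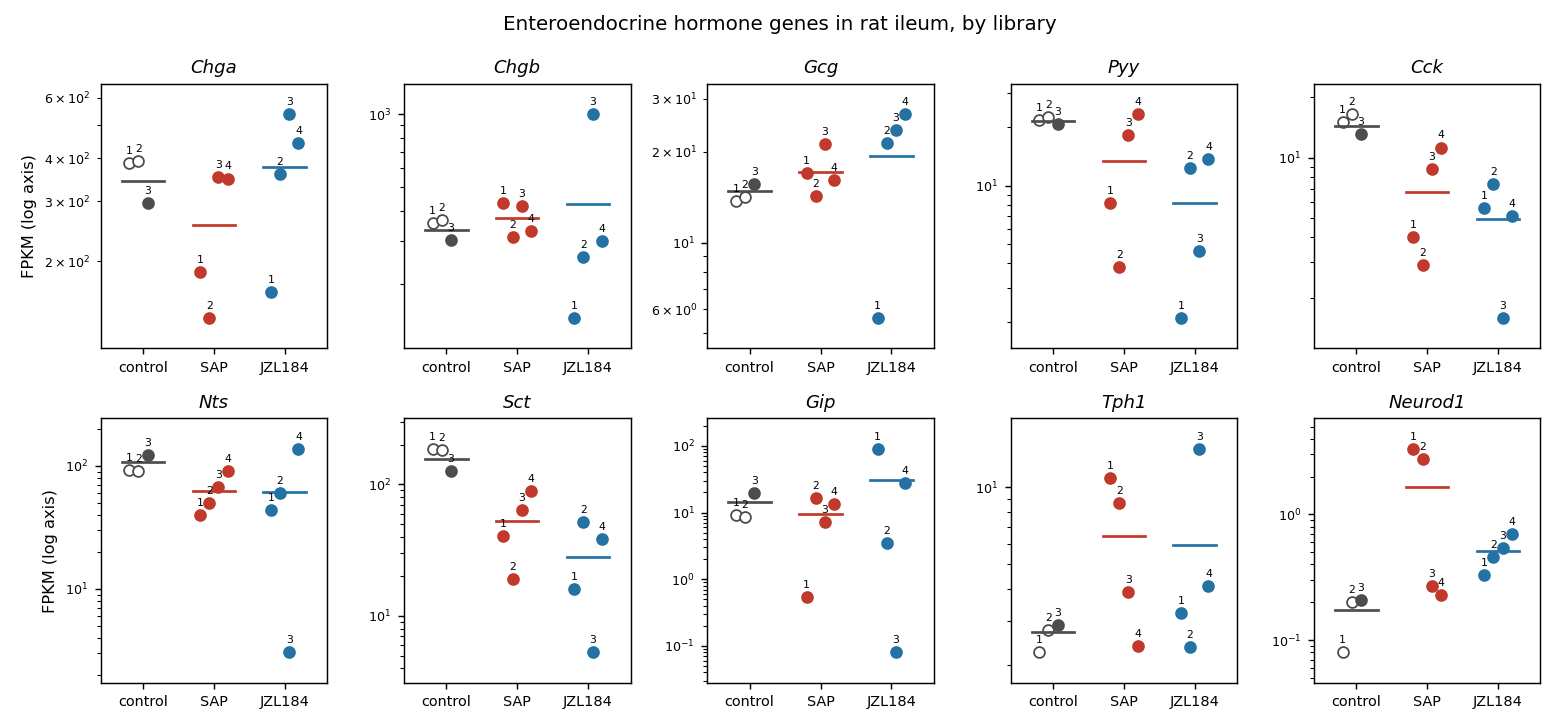
FPKM (log axis) of the 10 genes in every library of the control, SAP and JZL184 groups, with the library number above each point and the group mean as a line; open symbols are control libraries 1 and 2, counted as 1 sample. Sct and Cck of all SAP and JZL184 libraries lie below all control libraries, Gip runs from 0.08 to 90.1 within the JZL184 group, and Neurod1 is high in SAP libraries 1 and 2.

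The counts of all genes were compared by the quasi-likelihood test of edgeR. A gene was called if its p, adjusted by Benjamini-Hochberg over all genes tested, was below 0.05 and its level differed by more than 1 on the log2 scale. The SAP against control comparison asked what pancreatitis does to the ileum, JZL184 against SAP what the inhibitor adds, and JZL184 against control how far the treated rats remained from the controls. The first pair of comparisons shares the SAP libraries, and both comparisons with the control group share its samples. In SAP against control none of the 10 genes was called, and 0.0% of the 16029 genes tested were. At an unadjusted p below 0.05 there were 2 of the 10, Sct and Neurod1, beside 9.09% of all genes. DESeq2 called none of the 10 and 1.23% of all genes, and with control libraries 1 and 2 as separate samples it called 2 of the 10 (Sct lower, adjusted p = 0.0174, and Neurod1 higher, adjusted p = 0.0130) and 8.46% of all genes. In JZL184 against SAP none of the 10 was called beside 0.0% of 15308 genes, none had an unadjusted p below 0.05 beside 21.3% of all genes, and DESeq2 called none beside 6.98%.

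In JZL184 against control edgeR called none of the 10 and 2.16% of 15916 genes. At an unadjusted p below 0.05 there were 3 (Sct, Cck and Neurod1), beside 26.3% of all genes. DESeq2 called Sct (adjusted p = 0.00793) and Cck (adjusted p = 0.0494) lower, beside 10.8% of all genes. limma-voom with sample quality weights called Sct (adjusted p = 0.0247) and Cck (0.0305) lower and Neurod1 (0.0401) higher, beside 18.3%. The same 3 genes were called by edgeR with control libraries 1 and 2 as separate samples (18.1% of all genes), by DESeq2 with separate control libraries (18.9%) and by edgeR without JZL184 libraries 1 and 3 (19.4%). Across these fits 0 to 3 of the hormone genes were called, and Sct was among them in each fit that called any.

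The groups of FPKM did not overlap for 3 of the 10 genes that were lower in SAP than in control (Cck, Nts and Sct), where 8.65% of all genes tested lay lower without overlap, and for 1 that was higher (Neurod1), where 13.4% did. Between JZL184 and SAP all 10 overlapped, where 4.7% of all genes lay higher without overlap and 6.53% lower. JZL184 lay below control without overlap for 3 of the 10 (Pyy, Cck and Sct), beside 18.1% of all genes, and above it for 1 (Neurod1), beside 18.5%. The median log2 fold change of the 10 genes was -0.63 in SAP against control, where that of all genes was 0.06. It was 0.10 against -0.05 in JZL184 against SAP and 0.19 against 0.08 in JZL184 against control.

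**Figure D2:**
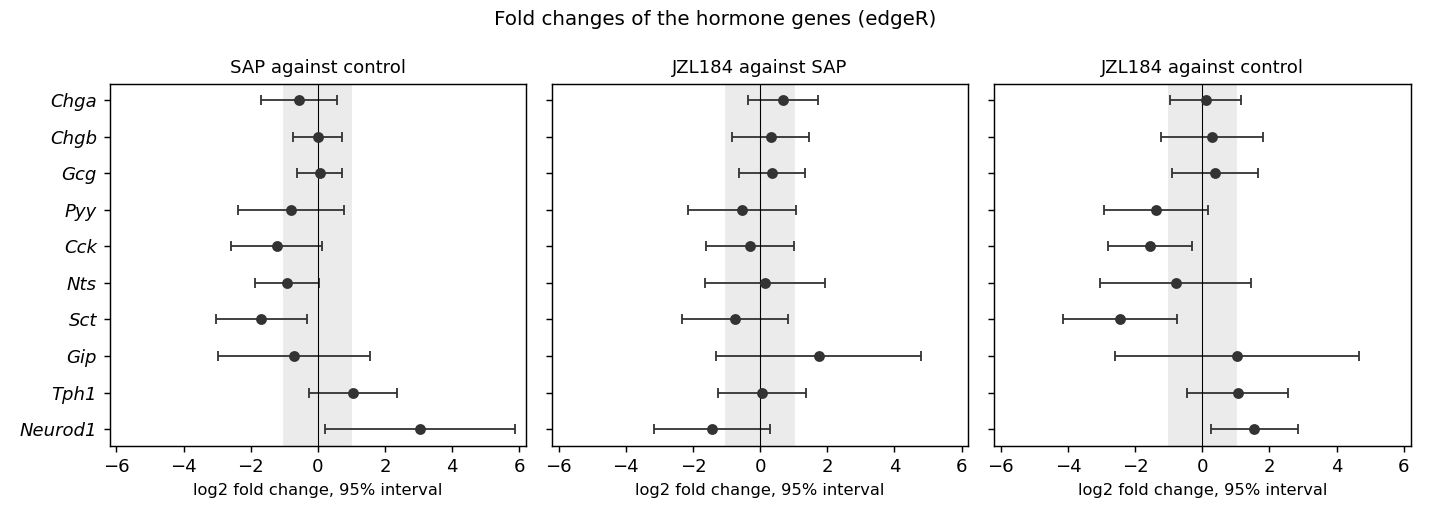
Log2 fold change of the 10 genes (x axis, edgeR) with its 95% confidence interval in the 3 comparisons; the gray band spans the fold change limits of 1 either way. The intervals exclude 0 for Sct and Neurod1 in SAP against control and for Sct, Cck and Neurod1 in JZL184 against control, before adjustment, and for none in JZL184 against SAP.

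Chga encodes chromogranin A, the main granin of endocrine granules. Its level was 388, 393 and 295 FPKM in control libraries 1 to 3, 185, 137, 353 and 349 in SAP libraries 1 to 4 and 163, 360, 538 and 444 in JZL184 libraries 1 to 4. SAP libraries 1 and 2 and JZL184 library 1 were low and the other libraries spanned 295 to 538, so that all groups overlapped. SAP against control gave a log2 fold change of -0.57 (95% CI -1.70 to 0.57, adjusted p = 0.562, edgeR), and -0.04 when SAP libraries 1 and 2 were left out. It was 0.68 (95% CI -0.36 to 1.73, adjusted p = 0.400) in JZL184 against SAP and 0.10 (95% CI -0.97 to 1.16, adjusted p = 0.915) in JZL184 against control. Against SAP libraries 3 and 4 alone, JZL184 gave 0.16.

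Chgb encodes chromogranin B, the second granin of the same granules. Its level was 357, 366 and 304 FPKM in the control libraries, 433, 313, 420 and 331 in the SAP libraries and 145, 257, 1001 and 300.2 in the JZL184 libraries. The control and SAP groups overlapped, although SAP libraries 1 and 3 lay above every control library, with a log2 fold change of -0.01 (95% CI -0.73 to 0.71, adjusted p = 0.988, edgeR) that was 0.095 without SAP libraries 1 and 2, and the JZL184 group held both the lowest and the highest library. JZL184 against SAP gave 0.32 (adjusted p = 0.730) and JZL184 against control 0.28 (adjusted p = 0.816), and both turned negative without JZL184 library 3 (-0.45 and -0.49) and without JZL184 libraries 1 and 3 (-0.18 and -0.20). That library carried 1001 FPKM of Chgb together with 478 of Car1.

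The ratio of Chgb to Chga within a library was 0.922, 0.932 and 1.03 in the control libraries, 2.33, 2.29, 1.19 and 0.947 in the SAP libraries and 0.892, 0.714, 1.86 and 0.677 in the JZL184 libraries. In 3 of the 4 JZL184 libraries it lay below the control range, and in JZL184 library 3 above it.

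**Figure D3:**
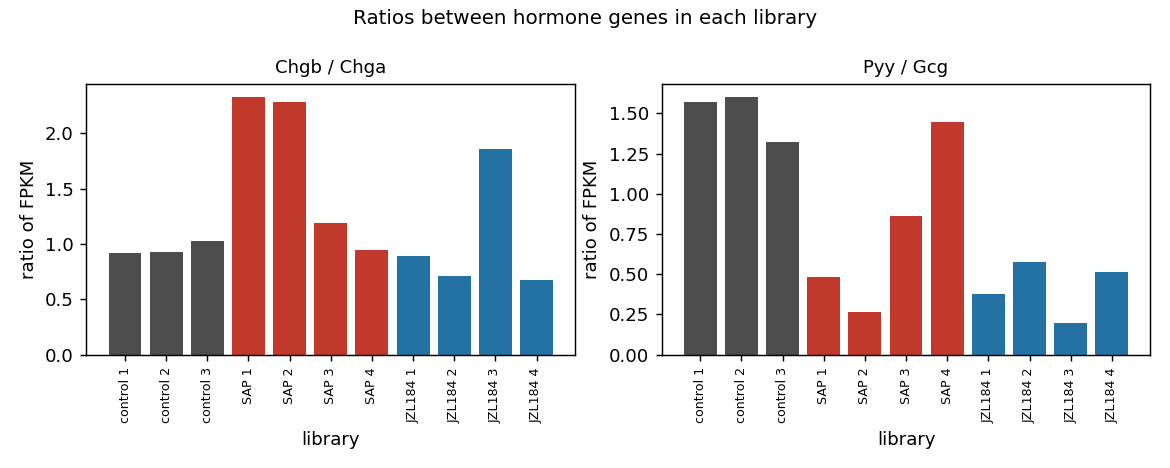
Ratio of Chgb to Chga (left) and of Pyy to Gcg (right), each from FPKM, as 1 bar per library, gray for control, red for SAP and blue for JZL184. Chgb exceeds Chga most in SAP libraries 1 and 2 and JZL184 library 3, and the Pyy to Gcg ratio of the 4 JZL184 libraries, 0.195 to 0.577, lies below the 1.32 to 1.60 of the control libraries.

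Sct encodes secretin, which drives bicarbonate secretion by the pancreas. Its level was 186, 181 and 127 FPKM in the control libraries, 40.4, 19.2, 63.7 and 88.2 in the SAP libraries and 16.1, 51.3, 5.29 and 38.6 in the JZL184 libraries. Every SAP and JZL184 library lay below every control library, and the SAP and JZL184 groups overlapped. The mean fell from 155 ± 39.8 (n = 2) to 52.9 ± 29.8 (n = 4) and 27.8 ± 20.9 FPKM (n = 4), and both differences gave the smallest p that the exact two-sided permutation test of FPKM allows with 4 against 2 samples, 0.0667. The log2 fold change was -1.69 (95% CI -3.05 to -0.33, unadjusted p = 0.0210, adjusted p = 0.459, edgeR) in SAP against control, and -1.10 without SAP libraries 1 and 2. In JZL184 against control it was -2.46 (95% CI -4.15 to -0.76, adjusted p = 0.0965), and it was -1.73 without JZL184 libraries 1 and 3 (adjusted p = 0.00478). JZL184 against SAP gave -0.75 (95% CI -2.33 to 0.84, adjusted p = 0.542), which became -0.02 without JZL184 libraries 1 and 3 and -1.33 without SAP libraries 1 and 2. Without JZL184 library 3, edgeR called Sct in JZL184 against control (adjusted p = 0.0392), beside 860 of 15762 genes tested.

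Cck encodes cholecystokinin, which stimulates the exocrine pancreas. Its level was 15.09, 16.46 and 13.03 FPKM in the control libraries, 4.0, 2.92, 8.73 and 11.2 in the SAP libraries and 5.63, 7.36, 1.59 and 5.08 in the JZL184 libraries. As for Sct, every SAP and JZL184 library lay below the controls, and SAP libraries 1 and 2 and JZL184 library 3 were the lowest. The log2 fold change was -1.23 (95% CI -2.59 to 0.13, adjusted p = 0.459, edgeR) in SAP against control and -0.59 when SAP libraries 1 and 2 were left out. It was -1.56 (95% CI -2.79 to -0.32, adjusted p = 0.124) in JZL184 against control, where the exact permutation p of FPKM was 0.0667, and -1.14 (adjusted p = 0.0431) without JZL184 libraries 1 and 3. In JZL184 against SAP it was -0.31 (95% CI -1.62 to 1.01, adjusted p = 0.774), and it was 0.11 without JZL184 libraries 1 and 3 and -0.94 without SAP libraries 1 and 2.

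Gip encodes the incretin made by the K cells of the duodenum and jejunum, which raises insulin release after a meal. Its level was 9.15, 8.62 and 19.5 FPKM in the control libraries, 0.55, 16.8, 7.32 and 13.6 in the SAP libraries and 90.1, 3.47, 0.08 and 28.0 in the JZL184 libraries. The highest and the lowest level both stood in the JZL184 group. The lowest, in JZL184 library 3, rested on 2 reads and that of SAP library 1 on 17, where JZL184 library 1 had 2590, and the intervals of the group differences were wide. The log2 fold change was -0.70 (95% CI -2.96 to 1.56, adjusted p = 0.712, edgeR) in SAP against control, 1.74 (95% CI -1.31 to 4.80, adjusted p = 0.460) in JZL184 against SAP and 1.03 (95% CI -2.60 to 4.66, adjusted p = 0.707) in JZL184 against control, and the last became -0.40 without JZL184 library 1. Without JZL184 libraries 1 and 3 the last pair of values was 0.90 and 0.19.

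Of 5 genes that mark the proximal small intestine, Lct and Gata4 moved with Gip in the SAP and JZL184 libraries and the other 3 did not in the JZL184 libraries. Lct was at 0.24 to 0.33 FPKM in the control libraries, at 0.06, 7.58, 0.13 and 0.21 in the SAP libraries and at 44.5, 0.41, 0.06 and 3.51 in the JZL184 libraries. Gata4 was at 0.08 to 0.17, then at 0.02, 3.65, 0.05 and 0.03, and at 7.73, 0.05, 0 and 0.34 FPKM in the same order. The libraries with the most Gip of each treated group, SAP library 2 and JZL184 libraries 1 and 4, were those with the most Lct and Gata4, and those with the least, SAP library 1 and JZL184 library 3, had the least of both. Control library 3 had 19.5 FPKM of Gip with 0.24 of Lct. The iron exporter gene Slc40a1 was at 0.83, 2.47, 1.60 and 1.53 FPKM in the SAP libraries and at 0.74, 0.52, 3.03 and 0.58 in the JZL184 libraries, highest in the latter where Gip was lowest. Cybrd1, a ferric reductase, was at 1.43 in SAP library 2 and at 0.34 to 0.49 in all JZL184 libraries, and Onecut2 did not exceed 0.02 in any library. The part of position along the gut in the levels of Gip was not tested.

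**Figure D4:**
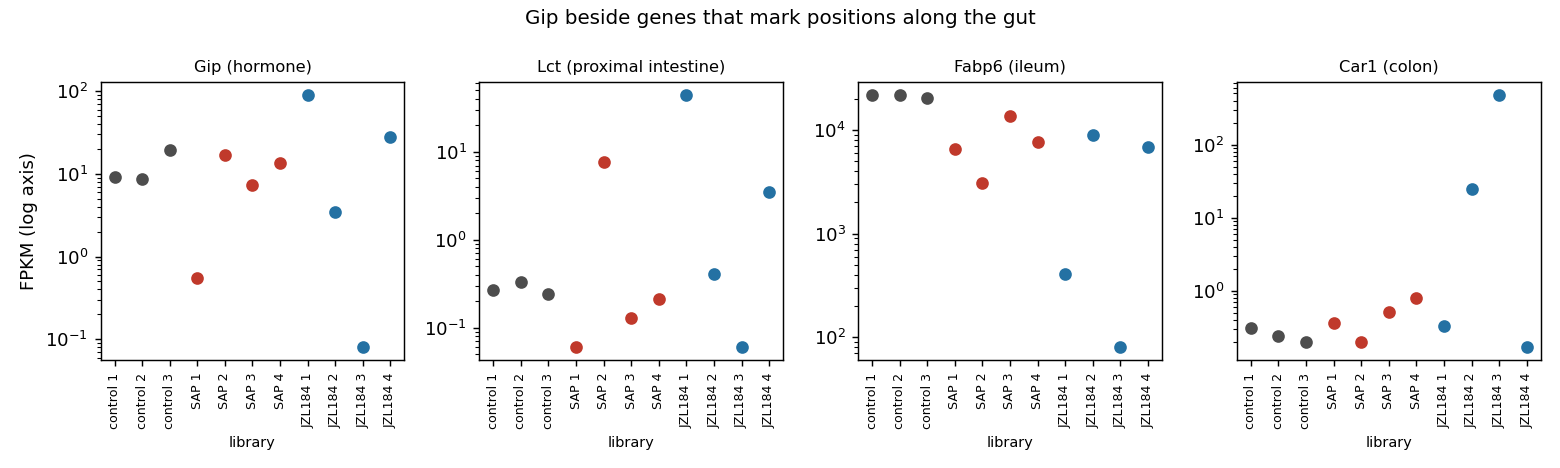
FPKM (log axes) of Gip and of Lct, Fabp6 and Car1, which mark the proximal small intestine, the ileum and the colon, in each of the 11 libraries, gray for control, red for SAP and blue for JZL184. JZL184 library 1 is high in Gip (90.1) and Lct (44.5), and JZL184 library 3 is low in Gip (0.08) and Fabp6 (79.9) and high in Car1 (478).

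Gcg encodes proglucagon, from which L cells make GLP-1 and GLP-2. Its level was 13.8, 14.1 and 15.6 FPKM in the control libraries, 17.0, 14.3, 21.2 and 16.1 in the SAP libraries and 5.64, 21.5, 23.6 and 26.7 in the JZL184 libraries. The SAP libraries overlapped the controls, and of the JZL184 libraries 1 lay below and 3 above the whole control range. For Gcg the log2 fold change was 0.05 (95% CI -0.62 to 0.73, adjusted p = 0.934, edgeR) in SAP against control, 0.36 (95% CI -0.62 to 1.33, adjusted p = 0.644) in JZL184 against SAP and 0.38 (95% CI -0.90 to 1.65, adjusted p = 0.694) in JZL184 against control. Without JZL184 libraries 1 and 3 the last was 0.76 (adjusted p = 0.0932).

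Pyy encodes peptide YY, the appetite-reducing hormone that L cells make together with GLP-1. Its level was 21.6, 22.6 and 20.7 FPKM in the control libraries, 8.20, 3.82, 18.2 and 23.3 in the SAP libraries and 2.11, 12.4, 4.61 and 13.7 in the JZL184 libraries. SAP libraries 1 to 3 and all JZL184 libraries lay below the controls, and SAP library 4 above them. The log2 fold change was -0.80 (95% CI -2.38 to 0.78, adjusted p = 0.559, edgeR) in SAP against control and -0.11 without SAP libraries 1 and 2. It was -0.55 (adjusted p = 0.664) in JZL184 against SAP, where it became 0.16 without JZL184 libraries 1 and 3 and -1.24 without SAP libraries 1 and 2. It was -1.37 (95% CI -2.92 to 0.18, adjusted p = 0.239) in JZL184 against control, and -0.66 in the latter without JZL184 libraries 1 and 3.

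Pyy and Gcg, which share a cell, thus differed within the libraries. The ratio of Pyy to Gcg was 1.57, 1.60 and 1.32 in the control libraries, 0.483, 0.268, 0.860 and 1.44 in the SAP libraries and 0.374, 0.577, 0.195 and 0.514 in the JZL184 libraries. Only SAP library 4 was within the control range. The ratio of Sct to Gcg was 13.5, 12.8 and 8.13, then 2.38, 1.35, 3.01 and 5.47, and 2.86, 2.39, 0.224 and 1.45 in the same order, below the controls in all 8 libraries of the SAP and JZL184 groups.

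Nts encodes neurotensin, a peptide of ileal endocrine cells that slows transit and aids fat absorption. Its level was 92.4, 90.6 and 122 FPKM in the control libraries, 40.1, 50.0, 67.9 and 90.6 in the SAP libraries and 43.8, 60.6, 3.05 and 138 in the JZL184 libraries. The SAP libraries lay below both control samples, although SAP library 4 equaled control library 2 taken alone, and the JZL184 group held the lowest and the highest library. For Nts the log2 fold change was -0.91 (95% CI -1.86 to 0.03, adjusted p = 0.459, edgeR) in SAP against control, 0.15 (95% CI -1.64 to 1.93, adjusted p = 0.923) in JZL184 against SAP and -0.79 (95% CI -3.03 to 1.46, adjusted p = 0.637) in JZL184 against control. Without JZL184 libraries 1 and 3 the last pair of values was 0.87 and -0.06, and without SAP libraries 1 and 2 JZL184 against SAP gave -0.28.

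Tph1 encodes the tryptophan hydroxylase that makes serotonin in enterochromaffin cells and is also used by mast cells. Its level was 2.25, 2.76 and 2.88 FPKM in the control libraries, 10.9, 8.65, 3.87 and 2.39 in the SAP libraries and 3.20, 2.36, 14.1 and 4.08 in the JZL184 libraries. SAP libraries 1 and 2 and JZL184 library 3 were high, and the rest were at 2.25 to 4.08. In edgeR the log2 fold change was 1.05 (95% CI -0.27 to 2.36, adjusted p = 0.460) in SAP against control and 0.14 without SAP libraries 1 and 2. It was 1.06 (adjusted p = 0.335) in JZL184 against control and 0.25 without JZL184 library 3, and 0.05 (adjusted p = 0.962) in JZL184 against SAP. Without JZL184 libraries 1 and 3 JZL184 gave 0.31 against control and -0.72 against SAP, and against SAP libraries 3 and 4 alone 0.94. The mast cell gene Cpa3 was at 1.0, 3.0, 1.38 and 0.84 FPKM in the SAP libraries and at 0.06, 0.36, 0.34 and 0.31 in the JZL184 libraries and at 2.0 to 2.55 in the controls. Over 8 mast cell genes the summed level was 7.50 to 10.2 FPKM in control, 6.31 to 12.6 in SAP and 2.67 to 5.38 in JZL184, where edgeR called Cpa3 (-3.15, adjusted p = 0.0466) and Fcer1a (-5.49, adjusted p = 0.0286) lower than in control. Of the 6 tested in JZL184 against control, 4 had a negative log2 fold change and 2 a positive one, Kit (0.66) and Hdc (0.25). Tpsb2 and Tpsab1 did not exceed 0.13 FPKM in any library. The part of mast cells in the level of Tph1 was not tested.

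Neurod1, a transcription factor of maturing endocrine cells, was the lowest of the 10 genes. It was at 0.08, 0.20 and 0.21 FPKM in the control libraries, 3.32, 2.74, 0.27 and 0.23 in the SAP libraries and 0.33, 0.46, 0.54 and 0.70 in the JZL184 libraries. These values rest on 4, 11 and 12 reads, then 226, 165, 15 and 14, and then 21, 25, 30 and 37. SAP libraries 1 and 2 stood far above all others, SAP libraries 3 and 4 lay just above the controls, and the JZL184 libraries lay between. The log2 fold change was 3.04 (95% CI 0.21 to 5.86, unadjusted p = 0.0383, adjusted p = 0.459, edgeR) in SAP against control and 0.52 without SAP libraries 1 and 2. It was 1.55 (95% CI 0.26 to 2.84, adjusted p = 0.135) in JZL184 against control. In JZL184 against SAP it was -1.43 (adjusted p = 0.304), and it turned to 1.07 without SAP libraries 1 and 2.

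Neurod1 is also made by neurons. In the same order, Nos1 of enteric neurons was at 0 to 0.01 FPKM in control, 0.27, 0.12, 0.01 and 0.01 in SAP and 0.02, 0, 0.05 and 0.03 in JZL184, and Elavl4 at 0.04 to 0.15, then 0.39, 0.36, 0.13 and 0.11, and then 0.28, 0.20, 0.27 and 0.18. Both were highest in SAP libraries 1 and 2, whereas the more abundant neuronal genes Uchl1 (5.13 and 2.80, against 7.47 to 8.79 in control) and Prph (16.6 and 8.37, against 21.8 to 29.9) were lowest there. Over 12 neuronal genes the summed level was 45.6 to 52.5 FPKM in control, 26.9 to 56.0 in SAP, with the lowest in SAP library 2, and 61.2 to 87.0 in JZL184, and their part in the level of Neurod1 was not tested. Of islet genes Ins2 did not exceed 0.14 FPKM in any library, and 4 islet genes together were at 0.29 to 1.99.

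**Figure D5:**
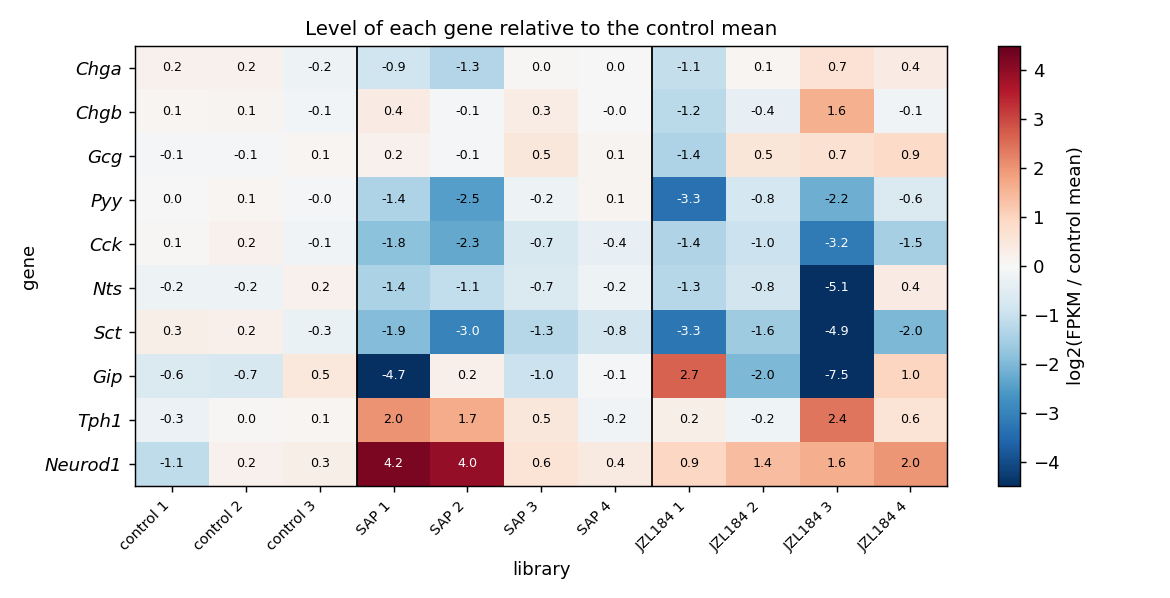
Log2 ratio of FPKM to the control mean for the 10 genes (rows) in the 11 libraries (columns), with the value in each cell; red is above and blue below the control mean, and the colors end at 4.5 either way. Sct and Cck are below the control mean in all 8 SAP and JZL184 libraries, and Neurod1 is above it in all 8.

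The remaining genes of these cells were grouped in lists. Among 12 granule and prohormone processing genes none was called by edgeR or DESeq2 in any comparison. At an unadjusted p below 0.05 there was none in SAP against control (9.09% of all genes) or JZL184 against control (26.3%) and 2 in JZL184 against SAP (21.3% of all genes). In the last, Pcsk1, the convertase that cuts proglucagon to GLP-1, had a log2 fold change of -1.15 (adjusted p = 0.167) and Syp, a vesicle membrane protein, of 0.98 (adjusted p = 0.227). Scg2, another granin, was at 11.2 to 16.9 FPKM in the control libraries, 45.7, 26.4, 20.6 and 15.1 in SAP and 15.4, 14.5, 25.4 and 28.7 in JZL184 (SAP against control 0.75, adjusted p = 0.462). The median log2 fold changes of this list were -0.20, 0.29 and 0.05 in the 3 comparisons in the order given above.

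Of 16 transcription factors of the lineage, 14 had enough reads for a test in SAP against control and 13 in the others. None was called by edgeR, and DESeq2 called 1, higher in JZL184 against control (10.8% of all genes). Neurog3, which starts the lineage, was at 0.40 to 0.81 FPKM in control, 0.31 to 0.67 in SAP and 0.98, 0.49, 0.02 and 0.16 in JZL184. Foxa1 had a log2 fold change of 1.41 (adjusted p = 0.459) in SAP against control and 1.87 (adjusted p = 0.0927) in JZL184 against control, and was at 2.21, 1.81, 0.78 and 0.64 FPKM in the SAP libraries where the controls had 0.31 to 0.57. Nkx2-2 had -0.56 (adjusted p = 0.457) in JZL184 against SAP. Of the other gut hormones, Sst (somatostatin) was at 14.7 to 15.9 FPKM in control, 6.15, 4.01, 18.6 and 16.2 in SAP and 11.7, 13.4, 27.1 and 16.5 in JZL184, so that SAP libraries 1 and 2 were low as for Chga. Ghrl (ghrelin) was at 31.4 in JZL184 library 3 and at most 2.80 in the others.

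Among 8 genes of serotonin handling edgeR called none. DESeq2 called 1 higher in JZL184 against SAP (6.98% of all genes) and 2 lower in JZL184 against control (10.8% of all genes). Ddc, the decarboxylase after Tph1 in serotonin synthesis, was at 4.77 to 5.65 FPKM in control, 2.94 to 5.95 in SAP and 3.05, 1.75, 0.72 and 2.00 in JZL184 (JZL184 against control -1.50, adjusted p = 0.102, edgeR). Slc18a2, a vesicular monoamine transporter, had -2.07 (adjusted p = 0.0656) in the same comparison. Slc6a4, the serotonin transporter of enterocytes and neurons, was at 4.37 to 5.54 FPKM in control, 3.89 to 7.65 in SAP and 3.75, 0.83, 0.21 and 1.93 in JZL184. Gch1, which makes a cofactor of Tph1, had -0.89 (adjusted p = 0.459) in SAP against control and 1.13 (adjusted p = 0.118) in JZL184 against SAP.

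Of 10 nutrient sensors edgeR called none. DESeq2 called 1 higher in JZL184 against SAP (6.98% of all genes) and 1 lower in JZL184 against control (10.8% of all genes). Lpar5, a receptor for products of protein and lipid digestion, was at 1.07 to 1.43 FPKM in control, 0.62 to 0.76 in SAP and 0.26 to 0.58 in JZL184, without overlap between any pair of groups (-1.09, adjusted p = 0.459, and -1.77, adjusted p = 0.0624, against control). Ffar4, a long-chain fatty acid receptor, had -0.86 (adjusted p = 0.461) in SAP against control and 1.70 (adjusted p = 0.160) in JZL184 against SAP. Of 21 hormone receptors and degrading enzymes, 19 had reads and 12 were tested in each comparison. By edgeR 1 was called, in JZL184 against control (2.16% of all genes). DESeq2 called 1 higher in JZL184 against SAP (6.98%) and 1 higher in JZL184 against control (10.8%). Sstr3, a somatostatin receptor, rose in JZL184 against control (log2 fold change 2.80, adjusted p = 0.0413) from 0.05 to 0.14 FPKM to 1.06, 0.45, 0.85 and 0.50, and had 2.44 (adjusted p = 0.0604) against the SAP libraries, which were at 0.12 to 0.18. Mme, neprilysin, a peptidase that degrades several of these hormones, was at 40.7 to 41.2 FPKM in control, 3.68, 2.83, 10.2 and 18.2 in SAP and 20.4, 2.85, 0.54 and 6.08 in JZL184 (SAP against control -2.33, adjusted p = 0.459).

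Over 12 epithelial genes the summed level was 20078 to 24872 FPKM in control, 10268 to 17598 in SAP and 10338 to 13057 in JZL184. This sum was lower in both treated groups without overlap, and most of it came from Krt8, Krt19, Krt20 and Epcam. Of the 12 genes, 10 had a negative log2 fold change in SAP against control (median -0.54) and 8 in JZL184 against control (median -0.44), whereas Cdh1 was at 105 to 118 FPKM in control and at 132 to 194 in the 8 other libraries. edgeR called Krt19 lower (-1.59, adjusted p = 0.0418) in JZL184 against control. The part of the amount of epithelium in the levels of Sct and Cck was not tested. Mgll, the target of JZL184, was at 4.26 to 5.83 FPKM in control, 2.74 to 4.93 in SAP and 4.19, 2.42, 10.5 and 1.56 in JZL184.

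Among 11092 genes with a mean of at least 1 FPKM, Resp18, an endocrine-specific protein, followed Chga most closely over the 10 samples (Pearson r of log2(FPKM + 1) 0.99), before Eif4a3 and Stard10 (0.97 and 0.96) and Fbxo6 and Fbxo7 (both 0.96). Resp18 was at 4.2 to 4.73 FPKM in control, 2.18, 1.71, 3.93 and 4.27 in SAP and 1.82, 4.30, 7.03 and 5.57 in JZL184, low in the same libraries as Chga. The genes most like Gcg were Kdf1 (0.93), Lpcat4 (0.89), Tesk1 (0.85), Cog1 (0.84) and Lamtor5 (0.84). These samples share groups and libraries that stand apart, and the correlations are descriptions.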

How the data were processed

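Ileal RNA of 3 groups (control, SAP, JZL184) was sequenced as stranded libraries. The authors aligned the reads to mRatBN7.2 with HISAT2 and deposited the count of reads per gene without normalization. The FPKM, normalized to gene length and library size, were also deposited by the authors, with 2 decimals. For the counting tool and the gene annotation, the name is not given in the sources used here. Counting error matters most for Neurod1 and for Gip, Pyy, Cck, Sct and Nts in the libraries where they were low (2 to 74 reads at the lowest). Intervals rest on the spread between libraries. Pairs of groups were compared with edgeR 4.0.16 (quasi-likelihood, TMM, default filter at a minimum count of 10) in R 4.3.3, adjusted over all genes tested. Standard errors were taken from the F statistic. Alternatives were DESeq2 1.42.0, limma-voom (limma 3.58.1), DESeq2 size factors, other filters, all groups in 1 fit, separate control libraries, replicate blocks, gene length offsets and leaving out libraries. Fits with replicate blocks also kept control libraries 1 and 2 separate. FPKM were compared with exact permutation tests. The scripts were tested on simulated data with the spread of these data. There 200 genes with many reads were changed, all by the same fold, which was larger than the fold change threshold. Smaller changes and changes of genes with few reads, such as Neurod1, were not simulated. Of these 200, edgeR called 28 in SAP against control, 102 in JZL184 against SAP and 83 in JZL184 against control. It thus missed many such changes, and a gene that was not called is not shown to be unchanged. DESeq2 called 157, 168 and 162 of them in the same order, among 229, 215 and 197 calls in all. Tables were made with Python 3.11.15. All 10 members are named, and the 5 genes each most like Chga and Gcg. From other lists some, not all, of the called genes and of the 2 with the smallest p per comparison are named. The smooth muscle gene Smtn was called by edgeR too (JZL184 against control -1.84, adjusted p = 0.0461). Neurog3, Slc6a4, Elavl4, Uchl1, Prph, Slc40a1, Cdh1, Hoxb13, Slc10a2, Slc51a, Slc51b, Nr0b2, Kit, Hdc, Tpsb2 and Tpsab1 were named after their values were seen. The members and lists were chosen with earlier results of these data known. For 1 gene of the marker lists, the values are not reported here.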

Additional observations from a re-analysis of the deposited data

Results flagged for a closer look

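In groups of 4 libraries, a library was marked when its gap to the nearest other library, divided by the range of the group, exceeded Dixon's 95% critical value. Of 140 groups of values tested, 14 were marked. The 1 in 20 of the critical value holds for independent values with a normal spread. These FPKM share libraries and some lie near 0, so the number marked cannot be set against that rate. Among the hormone genes 1 of 20 was marked, Tph1 in JZL184 library 3, at 14.1 FPKM the highest of its group. In the same library Car1 (478) and Ghrl (31.4) were the highest. JZL184 library 1 was the highest for Lct (44.5), Gata4 (7.73) and Fcer1a (0.03, where the other 3 are listed at 0) and the lowest for Cpa3 (0.06). SAP library 2 was the highest for Lct (7.58), Gata4 (3.65), Glp2r (1.59) and Cybrd1 (1.43) and the lowest for Stmn2 (2.59). Aqp8, a water channel of the colon epithelium, was the highest in SAP library 4 (2.25) and in JZL184 library 4 (0.57) of their groups.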

How the results depend on the processing

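The number of hormone genes called in JZL184 against control was 0 by edgeR, beside 343 of 15916 genes tested. It moved to 2 with DESeq2 (1899 of 17587 genes tested) and 3 with limma-voom (2906 of 15916). Without a filter on low counts it was 1 (929 of 23630), and 3 with control libraries 1 and 2 separate (2800 of 15427). Leaving out each JZL184 library in turn gave 0 to 1, with 1 without JZL184 replicate 3 (860 of 15762 genes tested). Chosen after seeing the data, leaving out JZL184 libraries 1 and 3 gave 3 (2967 of 15307 genes tested). DESeq2 with separate control libraries, also chosen then, gave 3 (3482 of 18468), and 2 in SAP against control (1434 of 16941). Same-numbered libraries did not deviate together, with correlations from -0.45 to 0.12, so the replicate numbers do not pair them. With the replicate number as a block and control libraries 1 and 2 as separate samples, 3 genes were called in JZL184 against control. These were Sct (-3.36), Cck (-1.89) and Pyy (-2.15), beside 1488 of 15427 genes tested. With gene length offsets added, 2 were called, beside 1201 of 15427. The block was not fitted with control libraries 1 and 2 as 1 sample. Further lists covered other gut hormones, lineage transcription factors, and granule, serotonin, nutrient sensor and receptor genes. Together these had 1 call by edgeR over the 3 comparisons, 9 by DESeq2 and 7 with separate control libraries. In JZL184 against control, edgeR called 2.16% of all genes and DESeq2 10.8%, and with separate control libraries 18.1% and 18.9%. In JZL184 against SAP the shares were 0.0% and 6.98%. The lists of tissues and other cell types, where edgeR also called genes (Krt19, Cpa3, Fcer1a and Smtn), are not in these numbers. In the exact permutation tests of FPKM, 1 gene in SAP against control and 2 in JZL184 against control reached the smallest p; these became 0 with log2(FPKM + 1) and 0 with log2(FPKM + 0.1) in the former, 1 with log2(FPKM + 0.1) in the latter, and 1 to 3 and 2 to 5 when libraries were left out, where fewer samples make the smallest p larger and easier to reach. In SAP against control the log2 fold change turned its sign for Chgb 0.048 with limma-voom with sample quality weights, Chgb 0.0056 with at least 10 reads in every sample, Chgb 0.068 and Gcg -0.12 with gene length offsets, Chgb 0.058 and Gcg -0.25 with gene length offsets and replicate block, Chgb 0.095 without SAP libraries 1 and 2. Leaving out 1 library at a time gave in this comparison Chgb -0.19 to 0.20 and Gcg -0.088 to 0.17. In JZL184 against SAP the log2 fold change turned its sign for Cck 0.11, Chgb -0.18, Pyy 0.16 and Tph1 -0.72 without JZL184 libraries 1 and 3, Chgb -0.095 and Tph1 -0.13 with limma-voom with sample quality weights, Chgb -0.018, Gip -0.23, Nts -0.33 and Tph1 -0.11 with replicate block, Chgb -0.013, Gip -0.53 and Nts -0.81 with gene length offsets and replicate block, Neurod1 1.07 and Nts -0.28 without SAP libraries 1 and 2, Nts -0.11 with gene length offsets. Leaving out 1 library at a time gave in this comparison Cck -0.66 to 0.14, Chgb -0.45 to 0.62, Nts -0.61 to 0.55 and Tph1 -0.76 to 0.41. In JZL184 against control the log2 fold change turned its sign for Chga -0.21, Chgb -0.11, Gcg -0.052 and Gip -1.24 with replicate block, Chga -0.074, Chgb -0.012, Gcg -0.13 and Gip -1.21 with gene length offsets and replicate block, Chgb -0.055 and Gip -0.65 with limma-voom with sample quality weights, Chgb -0.20 without JZL184 libraries 1 and 3. Leaving out 1 library at a time gave in this comparison Chga -0.15 to 0.37, Chgb -0.49 to 0.57 and Gip -0.40 to 1.61. Over the 10 genes and 3 comparisons, each gene was counted in each comparison under each alternative. Of these results 49 turned their sign, 486 did not and kept their side of the threshold, and 23 passed it. The 486 include separate control libraries in JZL184 against SAP, a fit that holds no control library and equals the main one. The cause of the changes was not tested. Leaving out the sum of control libraries 1 and 2 or control 3 leaves 1 control sample, which is then assumed to vary like the other group.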
